A study of Mus musculus with 6 samples.

Results

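The genes described here present peptides on MHC class I molecules. They are 10 genes picked by symbol from a table of 13595: the class I heavy chains H2-K1, H2-D1 and H2-T23, their shared light chain B2m, the peptide transporter and its partner (Tap1, Tap2, Tapbp), and the inducible proteasome subunits Psmb8, Psmb9 and Psmb10. All 10 were in the table, and all 10 passed the filter on low values that left 12568 genes for testing. Psmb9 passed it only through the male-labelled libraries, being under the minimum of 1 in each female-labelled one. RNA came from primary CD31-positive cells of the livers of C57BL6/J mice, 4 weeks old, grown in culture. CD31 is a surface protein of endothelial cells. The series compares males with females, with 3 libraries labelled male and 3 labelled female (replicates 4, 5 and 6 of each). Every library, of either label, had received 100 µM indoxyl sulfate, a tryptophan metabolite that activates the aryl hydrocarbon receptor, and 6 hours of hypoxia with nutrient deprivation. The only contrast analysed here is therefore that of the sex labels under this treatment, and no effect of indoxyl sulfate or of low oxygen on these genes can be read from it. The labels do not say whether replicates are mice, isolations or wells, so each p-value measures only the spread between these libraries.

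Class I molecules carry short peptides from inside the cell to its surface, where CD8 T cells read them. The proteasome cuts cytosolic proteins, TAP pumps the fragments into the endoplasmic reticulum, tapasin holds the empty heavy chain and B2m beside TAP, and a loaded complex then travels to the membrane. Interferons raise most of these genes together, through factors such as IRF1 and the class I transactivator NLRC5, and exchange the constitutive catalytic subunits of the proteasome for inducible ones. Liver sinusoidal endothelial cells are known for presenting antigen on class I to CD8 T cells.

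The libraries held 22303270 to 31189363 reads over the genes of the table. Levels are given as the authors' normalized read counts, in which 3 reads correspond to 0.106 to 0.142. Xist, the RNA of X inactivation, was at 234 to 324 in the libraries labelled female and 0.124 to 0.458 in those labelled male. However, transcripts of 4 Y-linked genes (Ddx3y, Uty, Eif2s3y, Kdm5d) were present in every library labelled female, at 51.3% to 91.5% of their mean in the male-labelled ones, which goes against the label. Each direction below rests on these labels. The library male 4 stood apart from the others of its group: the chi-square statistic per gene, near 1 for sampling noise alone, was 43.6 and 45.4 between it and male 5 and male 6, and 4.35 to 9.59 for the other pairs of like-labelled libraries.

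All 10 genes were lower in the libraries labelled female, by 2.54-fold (Psmb10) to 19.4-fold (Psmb9), and in none of them did the groups overlap. Differences were tested with limma on log2(value + 1), adjusted over all 12568 genes with a threshold of 0.05, and every member passed, as did 69.3% of all tested genes in either direction. Their median log2 change was -2.25, against 0.01 for all tested genes. Psmb9 could be tested only because it was high in one group, so its call could come out in 1 direction only. The other 9 reached the minimum in every library, and their median was -2.03. This contrast calls a large part of the table: 34.6% of all tested genes were called lower, and 37.0% were lower without overlap. Only 12.1% were called lower with a log2 change of -1 or below, as all 10 members were. Tested as whole reads with edgeR (quasi-likelihood), the members were again all 10 called lower, against 34.5% of the genes so tested. In bulk RNA, fewer cells that express a gene and less of its RNA per cell cannot be told apart.

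**Figure D1:**
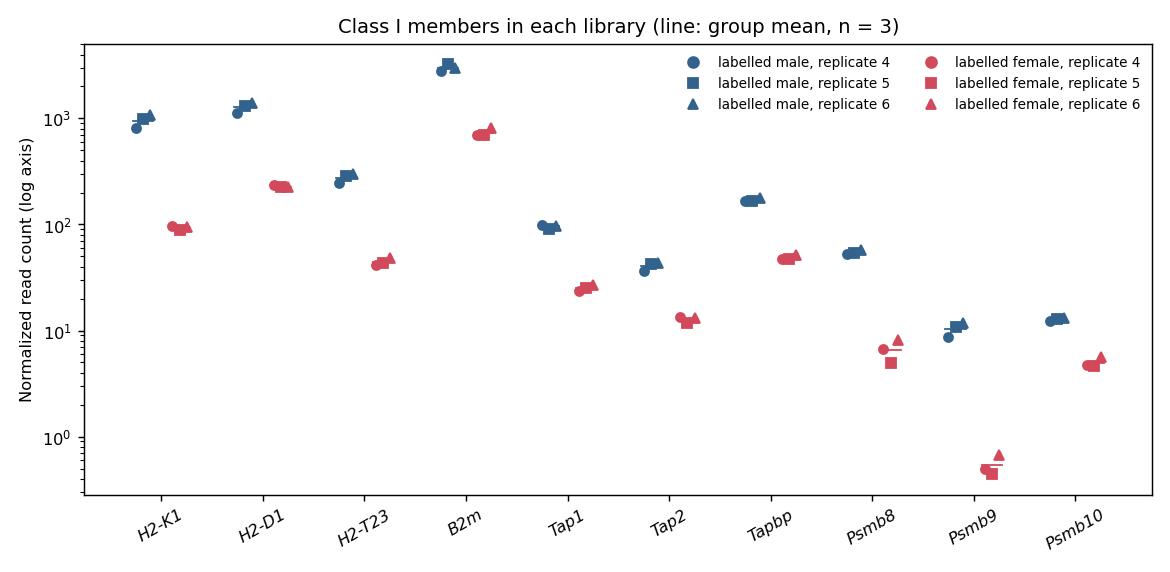
Normalized read count (log axis) of each of the 10 genes in the 3 libraries labelled male (blue) and the 3 labelled female (red), with symbols for the replicate number and a line at each group mean. In every gene the 3 red points lie below the 3 blue points, with the widest gap at Psmb9.

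The classical heavy chains H2-K1 and H2-D1 form the peptide groove that T cells recognise. H2-K1 was read at 804, 986 and 1066 in male 4, 5 and 6 (libraries are given in this order throughout) and at 96.0, 88.7 and 93.7 in the female-labelled ones. Its lowest male level was 8.37 times its highest female level, and its log2 change was -3.34 (SE 0.10, adjusted p by limma 6.76e-08). Only 0.883% of tested genes were called with a change as large as this in the same direction. H2-D1 was read at 1126, 1312 and 1392 against 234, 226 and 224, a 5.60-fold difference with a log2 change of -2.47 (SE 0.08, adjusted p by limma 1.12e-07). The nonclassical H2-T23 encodes Qa-1, which presents leader peptides of other class I chains to NK cell receptors. It was read at 244, 287 and 299 against 41.8, 42.9 and 48.1, with a log2 change of -2.61 (SE 0.09, adjusted p by limma 1.27e-07). Male 4 was the lowest of its group for all 3 heavy chains, and without it their log2 fold changes were -3.45, -2.56 and -2.70. Heavy chains resemble one another, and 9.63% (H2-K1), 12.8% (H2-D1) and 14.5% (H2-T23) of their 50-base stretches also occur in transcripts of other genes. How the authors' counting shared such reads is not given in the sources used here, so values of single heavy chains are uncertain to that extent.

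B2m, the light chain that every class I molecule needs to fold, was the most abundant member. It was read at 2801, 3225.5 and 3015 in the male-labelled libraries and at 704, 698 and 806 in the female-labelled ones. Its log2 change was -2.03 (SE 0.09, adjusted p by limma 3.28e-07), and none of its 50-base stretches occurs in another gene. The ratio of heavy chain reads to B2m reads, given here as a percent and without a test, was lower in the libraries labelled female. For H2-K1 the ratio was 31.5% ± 3.43 (SD, n = 3) in the male-labelled libraries and 12.7% ± 1.01 in the female-labelled ones. The corresponding values were 42.4% ± 3.32 and 31.1% ± 2.92 for H2-D1, and 9.18% ± 0.647 and 6.02% ± 0.114 for H2-T23. For each of the 3 ratios the groups were apart.

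The promoters of H2-K1, H2-D1 and B2m are shown because each heavy chain pairs with B2m and all 3 genes were called lower. The stretch between the starts of Psmb9 and Tap1, which are transcribed away from each other, is shown because it serves a subunit that was 19.4-fold lower and a transporter chain that was 3.81-fold lower. The sequences are those of RefSeq on GRCm38.p6, each 200 bases before an annotated start of the gene (for Psmb9 and Tap1, the 225 bases between the starts, on the Tap1 strand). They lie at chr17:34000348-34000547 (minus strand), chr17:35262894-35263093 (plus), chr2:122147487-122147686 (plus) and chr17:34187331-34187555 (plus). Capitals mark, on either strand, the IRF core AANNGAAA, the kappa B consensus, the CRE core TGACG and CCAAT.
H2-K1: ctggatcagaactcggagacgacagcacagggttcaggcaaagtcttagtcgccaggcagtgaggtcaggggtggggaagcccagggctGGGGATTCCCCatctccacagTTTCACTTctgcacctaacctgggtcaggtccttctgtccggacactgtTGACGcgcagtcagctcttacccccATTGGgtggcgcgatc
H2-D1: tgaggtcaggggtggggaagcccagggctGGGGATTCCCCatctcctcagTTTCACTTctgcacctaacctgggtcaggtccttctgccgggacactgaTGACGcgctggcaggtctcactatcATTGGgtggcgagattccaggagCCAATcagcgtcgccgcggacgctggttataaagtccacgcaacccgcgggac
B2m: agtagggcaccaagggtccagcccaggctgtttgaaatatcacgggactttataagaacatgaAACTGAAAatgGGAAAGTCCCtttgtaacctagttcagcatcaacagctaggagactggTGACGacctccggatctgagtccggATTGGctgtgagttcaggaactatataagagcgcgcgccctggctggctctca
Psmb9 to Tap1: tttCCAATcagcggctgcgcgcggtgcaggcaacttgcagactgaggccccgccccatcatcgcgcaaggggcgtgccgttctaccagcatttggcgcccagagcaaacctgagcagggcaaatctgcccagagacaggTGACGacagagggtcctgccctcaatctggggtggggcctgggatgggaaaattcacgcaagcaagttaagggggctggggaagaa

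H2-K1 and H2-D1 carry the same order of motifs: a kappa B match that reads alike on both strands, an IRF core, a CRE core and a CCAAT in reverse. A forward CCAAT follows in both, inside the printed stretch of H2-D1 and past its end in H2-K1, at 9 to 13 bases after the start. H2-K1 has a further annotated start, from which this CCAAT lies before the start, at -6 to -2. Aligned on the kappa B match, 127 of 140 bases (90.7%) were identical. In B2m the IRF core comes first, at -137 to -130 from the start, and the kappa B match follows at -126 to -117. The stretch between Psmb9 and Tap1 holds a CCAAT and a CRE core, and neither an IRF core nor a kappa B match. Over windows of 300 bases (250 before the start, 50 after), available for 9 members and not for Tap2, an IRF core was found in 4 of 9 members against 23.9% of all 32851 promoters, and a kappa B match in 3 of 9 against 4.51%. The CRE core was found in 5 of 9 against 20.8%, and CCAAT in 7 of 9 against 37.4%. The letters GCGTG, the core bound by the aryl hydrocarbon receptor, were found in 6 of 9 against 32.4%. These are matches of letters. Psmb9 and Tap1 share most of their window and H2-K1 and H2-D1 are near copies, so the members are not independent.

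Tap1 and Tap2 encode the paired chains of the peptide pump. Tap1 was read at 99.2, 90.4 and 97.7 in the male-labelled libraries and 23.8, 25.0 and 26.6 in the female-labelled ones, a log2 change of -1.89 (SE 0.07, adjusted p by limma 1.98e-07). Tap2 was less abundant, at 36.7, 42.2 and 43.1 against 13.4, 11.8 and 13.0, with a log2 change of -1.60 (SE 0.09, adjusted p by limma 1.74e-06). The fold difference was thus 3.81 for Tap1 and 3.19 for Tap2. Tapbp encodes tapasin, which bridges TAP and the empty heavy chain. It was read at 168, 165 and 179 against 47.1, 46.9 and 52.0, a 3.51-fold difference with a log2 change of -1.79 (SE 0.07, adjusted p by limma 1.87e-07). Unlike for the heavy chains, male 4 was the highest of its group for Tap1 and the middle one for Tapbp. Other gene models share 23.2% of the 50-base stretches of Tapbp and 11.6% of those of Tap2.

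The inducible catalytic subunits held both ends of the range. Psmb8 encodes the subunit with chymotrypsin-like activity that favours the C-terminal residues class I grooves accept. It was read at 52.9, 53.8 and 57.1 against 6.72, 4.91 and 8.12, an 8.29-fold difference with a log2 change of -2.90 (SE 0.15, adjusted p by limma 8.82e-07). Psmb9 was read at 8.63, 10.7 and 11.9 against 0.498, 0.442 and 0.665, which are 208, 281 and 336 reads against 12, 10 and 14. Its groups were 19.4-fold apart, and since the added count of 1 compresses low values, its log2 fold change was -2.89 with limma but -4.29 with edgeR, both given without a test because of the filter. Psmb10 was read at 12.2, 12.7 and 13.0 against 4.73, 4.60 and 5.60, the smallest change of the 10 (log2 change -1.20, SE 0.10, adjusted p by limma 1.74e-05). Of all tested genes, 9.48% were called lower by at least as much as Psmb10.

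Each inducible subunit takes the place of a constitutive one, and none of these was called lower. Psmb5, replaced by Psmb8, was higher at 63.1 ± 5.65 against 46.5 ± 4.50 (SD, n = 3), a log2 change of 0.43 (adjusted p by limma 0.00366). Psmb6, replaced by Psmb9, was also higher (log2 change 0.30, adjusted p by limma 0.00188). Psmb7, replaced by Psmb10, stood at 110 ± 8.51 against 103 ± 5.54 (log2 change 0.09, adjusted p by limma 0.301). The ratio of normalized read counts of Psmb8 to Psmb5 was 1.28, 1.08 and 1.19 in the male-labelled libraries and 0.0982, 0.0772 and 0.142 in the female-labelled ones. For Psmb9 to Psmb6 it was 0.111, 0.144 and 0.164 against 0.00538, 0.00471 and 0.00738. For Psmb10 to Psmb7 it was 0.125, 0.123 and 0.120 against 0.0423, 0.0390 and 0.0554. These ratios do not depend on how a library was scaled, and in each the groups were apart, by 11.1-fold, 24-fold and 2.69-fold. An exact two-sided permutation test gave p = 0.1 for each, also after adjustment over the 3 ratios, which is the smallest value that 3 libraries against 3 allow. Psmb5 shares 54.1% of its 50-base stretches with pseudogenes and other loci, so the first ratio is uncertain to that extent.

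**Figure D2:**
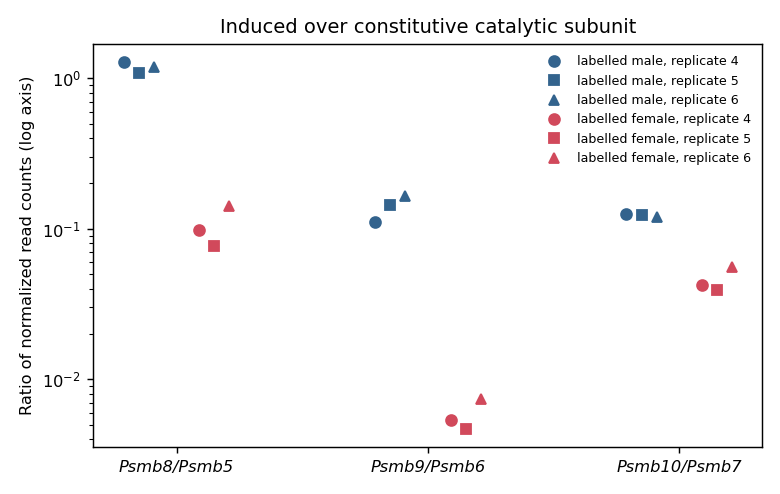
Ratio of normalized read counts (log axis) of each inducible proteasome subunit to the constitutive subunit it replaces, in the 3 libraries labelled male (blue) and 3 labelled female (red), by replicate number. For all 3 ratios the red points lie below the blue ones, furthest for Psmb9 to Psmb6.

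Set per kilobase of the longest coding transcript, so that genes can be compared, the order of levels in the libraries labelled male was B2m, H2-D1, H2-K1, H2-T23, Tapbp, Psmb8, Tap1, Tap2, Psmb10 and Psmb9. B2m stood at 3504 ± 247 normalized reads per kilobase (SD, n = 3) and Psmb9 at 7.69 ± 1.21. The ranges over libraries overlapped for H2-D1 (536 to 662) and H2-K1 (497 to 658), though H2-D1 was the higher within each of the 3 libraries, by 535.7 to 496.6, 624 to 609 and 662 to 658. They also overlapped for Psmb8 (32.5 to 35.1) and Tap1 (30.6 to 33.6), of which Psmb8 was the higher in 2 of the 3 libraries. In the libraries labelled female B2m was still first, at 855 ± 70.4, and Psmb9 last, at 0.396 ± 0.0857. There, H2-D1 (107 to 111) and H2-K1 (54.8 to 59.3) no longer overlapped. Psmb8, at 3.01 to 4.99, lay below Tap1, at 8.05 to 9.02, and overlapped Psmb10 and Tap2.

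Variation within the groups was small beside the difference between them. Male 4 was the lowest of its group for 8 of the 10 genes, at 76.4% of the mean of male 5 and male 6 for Psmb9 and 78.4% for H2-K1. Female 6 was the highest of its group for 7 of the 10. The mean of the 10 genes, each centred on the log2(value + 1) scale, was 1.02, 1.16 and 1.23 in the male-labelled libraries and -1.15, -1.22 and -1.03 in the female-labelled ones. The 5 tested genes outside the lists whose centred values lay nearest to this mean profile over the 6 libraries were Tgfbr3, Itpk1, Tmtc2, Ugt1a7c and Scarf1. Their root mean square differences from it were between 0.059 and 0.070 on the log2 scale, against 0.12 (H2-D1) to 0.54 (H2-K1, Psmb10) for the members themselves.

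Further genes of the pathway were counted in 7 lists. Of 77 genes, 65 were in the table and 62 were tested. There were 40 called lower, 10 called higher and 12 not called, with a median log2 change of -0.66, against a background of 34.6% of all tested genes called in each direction. The lists differed among themselves, from heavy chains that were all lower to constitutive proteasome subunits of which none was.

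All 15 tested class I and class I-like heavy chains beyond the members were lower (16 of the 21 listed genes were in the table, median log2 change -1.90). For 6 of them (H2-Q7, H2-Q8, H2-Q9, H2-Q10, H2-K2 and H2-L) this direction was fixed by the filter, which they passed only through the male-labelled libraries. The other 9 reached the minimum in all libraries of both groups, with a median of -1.64. H2-Q4 was read at 176, 180 and 184 in the male-labelled libraries and 26.6, 24.4 and 26.8 in the female-labelled ones, a log2 change of -2.75 (SE 0.06, adjusted p by limma 2.04e-08). H2-Q7, a Qa-2 gene, was read at 42.4, 68.7 and 69.5 against 0.581, 1.37 and 0.807 (log2 change -4.98, given without a test). H2-Q8 held at most 3 reads in each library labelled female and was at least 152-fold higher in those labelled male, measured against 3 reads per library. H2-Q4 shares 36.4% and H2-Q7 26.4% of their 50-base stretches with other genes, and H2-Q8 has no match in the annotation used. Class I-like genes that share few or none of their stretches were lower too. Fcgrt, the neonatal Fc receptor that also pairs with B2m, was at 20.9 ± 0.432 against 78.4 ± 4.13 (SD, n = 3). Mr1, which presents vitamin B metabolites, was at 16.1 ± 1.05 against 40.2 ± 2.73 (SD, n = 3). Hfe, the iron regulator, had a log2 change of -2.04 and H2-M3, which presents formylated peptides, one of -1.64. The least changed was H2-T24 (-0.55, adjusted p by limma 0.0148), whose call was lost without female 4 and without female 5 (adjusted p by limma 0.057 and 0.0514).

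Loading steps differed among themselves. Of the 8 genes of loading and the endoplasmic reticulum, 3 were called lower and 1 higher, with a median log2 change of -0.04. Erap1, the aminopeptidase that trims peptides to groove length, was at 27.8 ± 2.44 against 47.9 ± 0.713 (SD, n = 3, log2 change -0.77, adjusted p by limma 4.67e-05). The tapasin relative Tapbpl was lower by less (-0.46, adjusted p by limma 0.00973). Lnpep, an aminopeptidase of endosomes, was higher (0.90, adjusted p by limma 0.000256). The chaperones Canx (0.12), Pdia3 (-0.08) and Uggt1 (-0.01) and the transport protein Bcap31 (0.02) were not called. Without male 4, Canx (0.21, adjusted p by limma 0.00149) and Uggt1 (0.11, adjusted p by limma 0.0307) were called higher. Calreticulin (Calr) was called lower at -0.18 (adjusted p by limma 0.0493), a call that was lost in 8 of 12 alternatives, among them each library left out except male 4 (adjusted p by limma 0.0598 to 0.132).

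Proteasome activators divided. Psme1 (-0.85) and Psme2 (-0.50), the subunits of the interferon-inducible PA28 cap, were called lower. Psme3 (0.57) and Psme4 (0.93), which form nuclear caps, were called higher. Among assembly factors, Pomp was higher (0.31), Psmg3 was higher (0.50), Psmg2 (-0.32) and Psmg4 (-0.41) were lower, and Psmg1 was not called (-0.19). Calls of Psmg2, Psmg3 and Psmg4 were lost in 6, 4 and 5 alternatives. Leaving out a single library sufficed: male 6 or any of the female-labelled ones for Psmg2 (log2 changes of -0.37 to -0.23 over all libraries left out), male 4, male 5, female 5 or female 6 for Psmg3 (0.33 to 0.62), and male 5, male 6 or any of the female-labelled ones for Psmg4 (-0.52 to -0.31). Psmg1 was called lower without male 4 (-0.24, adjusted p by limma 0.0342).

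Of 15 tested transcription regulators, 11 were called lower and 2 higher (median log2 change -0.85). Irf1, an interferon-induced activator of class I and Psmb9 promoters, was read at 45.7, 92.8 and 93.1 against 9.42, 8.58 and 12.3, a log2 change of -2.76 (SE 0.26, adjusted p by limma 2.95e-05). Male 4 lay between the other males and the libraries labelled female, and the groups did not overlap. Stat2 (-1.25) and Irf9 (-1.39), which act in the type I interferon response, were lower as well. In the group labelled female, Stat2 and Irf9 were highest in female 6, the library in which 7 members were highest. Of the 15 tested regulators, Nlrc5, Rfx5, Rela and Rfxap were not highest there. In male 4, the library in which 8 members were lowest, Stat2 was also lowest (87.1, 95.2 and 97.0), but Irf9 was highest (64.1, 63.1 and 62.3). Whether regulators and members vary together within groups was not tested. Nlrc5, the class I transactivator, was weakly expressed at 3.94, 3.58 and 4.10 against 2.82, 1.50 and 1.99 (log2 change -0.67, adjusted p by limma 0.0058). Its partners Rfx5 (-0.87), Rfxank (-0.98) and Rfxap (-0.40) were lower, the last not without female 4 (-0.34, adjusted p by limma 0.051). Rela (0.28) and Creb1 (0.51) were higher, while Nfkb1 was lower (-0.85, adjusted p by limma 0.000357). Irf2 (-0.29, adjusted p by limma 0.136) was called lower only without male 6 (-0.43, adjusted p by limma 0.0317), and without male 4 it was at -0.096.

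Of 9 tested interferon receptors, kinases and inhibitors, 6 were called lower and 1 higher. The type I receptor chains Ifnar1 (-0.78) and Ifnar2 (-0.91) were lower. The type II receptor chains stood at 51.6 ± 2.32 against 53.7 ± 6.56 for Ifngr1 and 109 ± 0.337 against 111 ± 5.45 for Ifngr2 (SD, n = 3, adjusted p by limma 0.652 and 0.706). Jak1 was lower (-0.77), Jak2 lower (-0.36) and Tyk2 higher (0.37), the last not without female 4 (0.28, adjusted p by limma 0.0511). Of class II genes, 3 were tested and H2-Ab1 was called lower, at 1.83 ± 0.647 against 8.60 ± 0.718 (SD, n = 3). H2-DMa (0.25) and H2-DMb1 (-0.07), which load class II, were not called, though H2-DMa was called higher without female 6 (0.36, adjusted p by limma 0.0491).

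**Figure D3:**
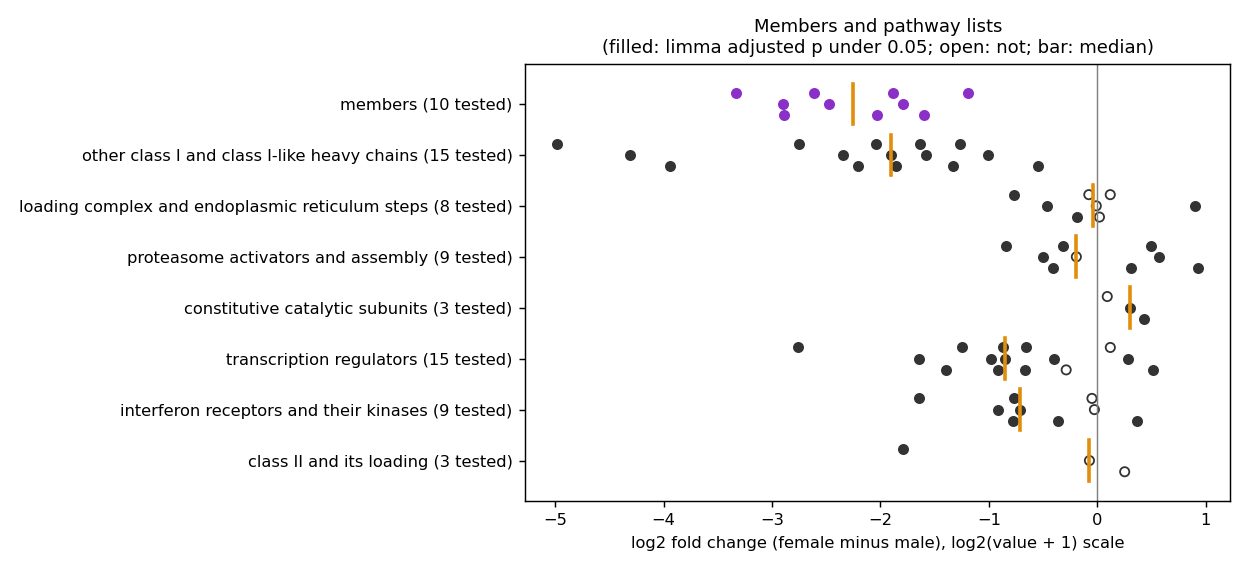
Log2 fold change (labelled female minus labelled male) of the 10 members (purple) and of each tested gene of the 7 pathway lists (black), filled where limma called the gene, with a bar at each list's median. The members and the other heavy chains lie wholly below 0, with medians of -2.25 and -1.90. Loading genes lie on both sides of 0, from -0.77 to 0.90, and constitutive subunits above it.

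In the mouse genome 8 of the 10 members lie in the major histocompatibility complex on chromosome 17, B2m lies on chromosome 2 and Psmb10 on chromosome 8. By the RefSeq gene order (GRCm38.p6), 89 tested genes span the stretch from Tapbp to H2-T23, a span chosen after the values were seen. The 8 members in it were lower, Psmb9 with a direction fixed by the filter. Of the 6 other class I genes, H2-K2, H2-Q5, H2-Q7 and H2-Q10 also had their direction fixed by the filter, and H2-Q4 (-2.75) and H2-T24 (-0.55) were called lower. Of the 75 remaining genes, 39 were called lower, 10 higher and 26 not called, with a median of -0.33, and 13 were called lower by at least 1 on the log2 scale. Among the 39, C4b, Ager, Prrt1 and A930015D03Rik had female-labelled means under the minimum of 1 (0.463, 0.756, 0.0692 and 0.746). They needed male-labelled libraries to pass the filter, so their direction was set at least in part by it. Over all tested genes 34.6% were called in each direction, and 12.1% were called lower by at least 1. Of the tested genes of this span directly beside members, none was called higher, and some were not called. Genes outside the span, among them those beside B2m and Psmb10, were not examined. Psmb9, Tap1, Psmb8 and Tap2 follow each other, and the genes before them, H2-DMb1 (-0.07) and H2-DMa (0.25), were not called, while Brd2, a chromatin reader further out, was higher (0.48, adjusted p by limma 0.000117). On the other side of Tap2, H2-Ab1 was called lower (-1.79, adjusted p by limma 3.88e-05). Rgl2 beside Tapbp (-0.46), Ddx39b (-0.33) and H2-Q4 (-2.75) beside H2-D1, and H2-T24 (-0.55) beside H2-T23 were called lower too. The genes on either side of H2-K1, AA388235 (-0.05, adjusted p by limma 0.826) and Ring1 (-0.35, adjusted p by limma 0.0646), were not called. The lowest of the 75 were the complement genes Cfb (-5.28), C4b (-3.79, with the filter limit given above) and C2 (-3.16). 

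**Figure D4:**
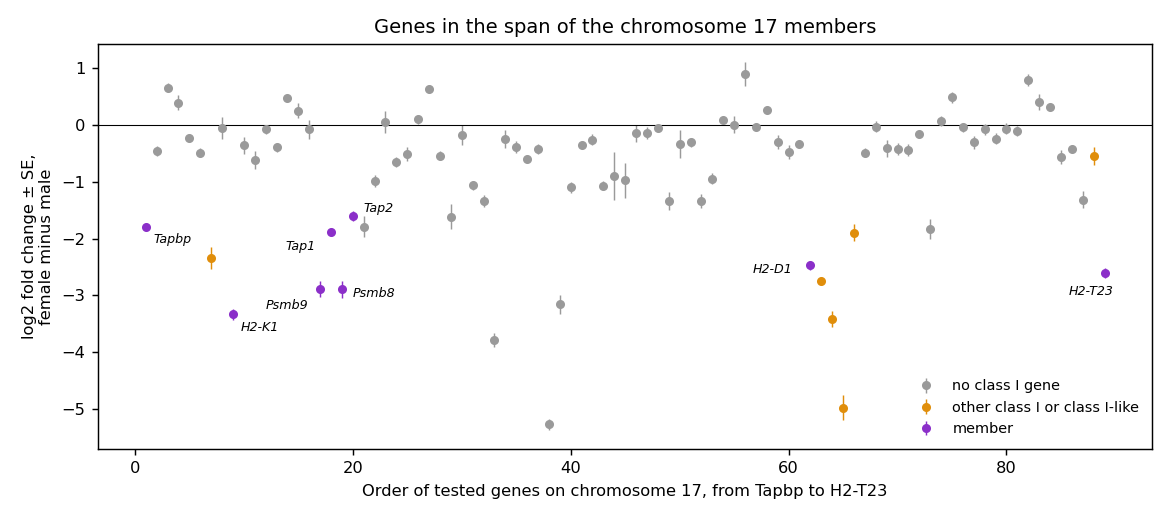
Log2 fold change (labelled female minus labelled male, ± SE) of the 89 tested genes from Tapbp to H2-T23 in their order on chromosome 17, with members in purple, other class I genes in orange and the rest in grey. Members lie between -1.60 and -3.34 among grey points that lie mostly between -1 and 1, with complement genes as the 3 lowest grey points.

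Markers of cell types moved between the groups too, and their part in the differences above was not tested. The counts below stand beside a background of 34.6% of all tested genes called in each direction. Of 11 tested endothelial markers, 9 were called lower and 1 higher in the libraries labelled female, and the summed level of the 12 listed markers was 1170.5 to 1232 there against 2263 to 2362. Of the 9 called lower, Erg and Vwf passed the filter only through the male-labelled libraries. Pecam1, which encodes CD31, was at 73.5 to 74.5 against 391 to 423. The 6 sinusoidal markers summed to 7.08 to 8.84 against 489 to 528, with Lyve1 at 4.37 to 5.48 against 470 to 513, and Stab2, Clec4g and Fcgr2b were near 0 in both groups. Of 12 tested stellate, mural and fibroblast markers, 8 were lower and 4 higher, with summed levels of 2672 to 3110.5 against 2851 to 3644.5. Of the 8, Lum passed the filter only through the male-labelled libraries. The contractile genes Acta2 (1513 to 1887 against 45.9 to 134) and Myh11 (103 to 147 against 1.41 to 1.79) were higher. The receptors Pdgfrb (13.0 to 15.3 against 129 to 136) and Pdgfra (16.3 to 19.5 against 56.0 to 60.7) and the collagen Col3a1 (205 to 242 against 1115 to 1553) were lower. Of 6 tested cholangiocyte and mesothelial markers, 2 were lower and 4 higher, with sums of 538 to 541 against 724 to 897, and over the 4 that reached the minimum of 1 in both groups the median log2 change was -0.07. The sum was carried by the biliary genes Krt19 (97.8 to 138 against 407 to 498) and Sox9 (58.4 to 74.5 against 297 to 397), which were lower. Krt7, a keratin gene of the same list, went the other way (8.31 to 10.9 against 1.30 to 2.61, log2 change 1.86). The mesothelial gene Msln was higher (299 to 358 against 17.1 to 20.6). Wt1 (11.7 to 13.6 against 0.0829 to 0.114) and Upk3b (1.37 to 4.65 against 0 in each), also mesothelial, passed the filter only through the female-labelled libraries. Blood cell markers were low. The 8 macrophage markers summed to 13.2 to 15.8 against 7.55 to 10.1. Of these 8, 2 were tested and both were called higher, Cd68 (0.48, adjusted p by limma 0.00479) and Csf1r (0.56, adjusted p by limma 0.0101). C1qa, C1qb and Cd5l were at or near 0 in both groups, and the pan-leukocyte gene Ptprc was at 0.142 to 0.332 against 0 in all 3 libraries labelled male. Of 10 lymphocyte and dendritic markers 1 was in the table, Xcr1, at 0.57 to 1.62 against 0.141 to 0.332. Hepatocyte markers summed to 0.133 to 0.332 against 0.871 to 1.07.

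The authors' deposited table gives all 10 members a negative fold change and a false discovery rate under 0.05, as it does for 13.8% of its genes. Its signed fold changes run from -2.54 for Psmb10 to -19.3 for Psmb9, and its false discovery rates from 1.17e-06 for H2-K1 to 0.0397 for Psmb10 in the authors' deposited table.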

How the data were processed

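Poly(A) RNA was sequenced in 6 libraries. Per the submitters' processing notes, Bowtie2, RSEM and edgeR were used with mm39. Their roles are not given in the sources used here. The deposited signal columns are normalized read counts: 100% of values in each were whole multiples (within 0.01) of the smallest value above 0, which gave back the reads. A deposited score column holds a signed fold change by the authors. The deposited p-value columns hold their p and false discovery rate. Per-sample columns without a sample numbered 0.

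Of the genes, those reaching 1 in 3 or more libraries were tested with limma 3.58.1 (R 4.3.3, eBayes with trend) on log2(value + 1), which understates changes of low genes, with Benjamini-Hochberg adjustment at 0.05. Alternatives were a pseudocount of 0.1, no filter, RLE factors, quantile normalization, edgeR 4.0.16 on recovered reads, the replicate number as a block and each library left out. Members and lists were chosen with earlier results of these data known. The text names all members, genes of the lists and the 5 genes nearest to the members' mean profile. Xist and the Y-linked genes check the labels. Neighbours on chromosome 17 (Brd2, AA388235, Ring1, Rgl2, Ddx39b, Cfb, C4b, C2, Ager, Prrt1, A930015D03Rik) and H2-T9, H2-Q5, H2-M1 and H2-M9 were picked after their values were seen. Floors of 3 reads cover counting error only. Shared sequence was the percent of a gene's 50-mers found in other genes' GENCODE M21 transcripts, on either strand. Lengths came from the same release. The scripts were tested on simulated data. The values of 1 listed gene are not reported here.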

Additional observations from a re-analysis of the deposited data

How the results depend on the processing

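All 117 values recomputed for the 10 members under the alternatives kept their direction and call. Of these values, 9 were of Psmb9, whose direction was fixed wherever the filter on values under 1 was used. Across the alternatives the log2 fold change of H2-K1 ran from -3.45 to -3.25, that of B2m from -2.10 to -1.98 and that of Psmb10 from -1.36 to -1.12. Psmb9 moved most, from -4.29 with edgeR to -2.82 under quantile normalization, and it could not be tested where a library labelled male was left out, because it then passed the filter in fewer than 3 libraries. Leaving out each library gave 9 to 10 members called, 43 to 48 of the further pathway genes (50 with all libraries) and 7373 to 9113 of all genes (8704 with all). It gave log2 ratio differences of -3.76 to -3.32 for Psmb8 to Psmb5, -4.78 to -4.45 for Psmb9 to Psmb6 and -1.59 to -1.34 for Psmb10 to Psmb7. With the replicate block, 8314 genes, all 10 members and 48 further pathway genes were called. Deviations of same-numbered libraries had correlations of -0.09, -0.03 and -0.17, which gave no sign that the numbers pair the libraries. With 3 libraries in each group this cannot exclude a pairing, and the labels do not state one.

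Of 732 values for the 62 further pathway genes, 692 kept direction and call, 27 lost the call, 4 gained it (Canx, Psmg1, Irf2 and H2-DMa, each without 1 library) and 9 changed sign. The sign changes were all of genes not called in the first place, and their cause was not tested. Under quantile normalization, which moved the median of all genes to 0.08, Uggt1 was at 0.11, Ifngr1 at 0.0069 and Ifngr2 at 0.032. Leaving out each library gave -0.075 to 0.11 for Uggt1 (called higher without male 4), -0.11 to 0.047 for Ifngr1, -0.063 to 0.0066 for Ifngr2, -0.024 to 0.073 for Bcap31 and -0.19 to 0.083 for H2-DMb1. No preparation or sequencing batch is given in the labels, and one that followed the 2 labels cannot be told apart from them. With Y-linked transcripts in every library labelled female, the contrast is one of labels.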

Other observations

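Among class I genes outside the lists, named after their values were seen, H2-T9 (-2.07) and H2-Q5 (-3.42) were called lower in the libraries labelled female, like the members. H2-Q5 passed the filter only through the male-labelled libraries. The M-region genes H2-M1 and H2-M9 were the other way round. H2-M1 was read at 0.0415, 0.267 and 0.106 in the male-labelled libraries and 2.53, 2.87 and 2.28 in the female-labelled ones, and H2-M9 at 0.124, 0.0763 and 0.0706 against 2.57, 2.92 and 1.99. Both passed the filter only through the group where they were high, so these values are given without a test. They share 1.29% and 0.903% of their 50-base stretches with other genes.

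H2-Q6, a Qa-2 gene below the filter, was uneven within a group. It was read at 2.49, 10.6 and 0 in male 4, male 5 and male 6, and at 0.124, 0 and 0.332 in the libraries labelled female. It shares 35.0% of its 50-base stretches with other genes, of which H2-Q7 shares the most.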
